A study of Oryza sativa with 6 samples.

Results

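Cytokinins are plant hormones that keep meristem cells dividing, and in rice their level in the young inflorescence bears on how many spikelets a panicle forms. Their precursors are made by isopentenyltransferases and turned into active free bases by enzymes of the LOG (LONELY GUY) family. They are broken down irreversibly by cytokinin oxidases/dehydrogenases (CKX). The 9 genes described here are LOG, the 7 degradation genes CKX1, CKX2 (also known as Gn1a, a grain number locus), CKX3, CKX4, CKX5, CKX9 and CKX11, and DST, a zinc finger transcription factor that activates CKX2. They were chosen by locus identifier, all 9 have a row, and the table holds 42189 loci.

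Messenger RNA was sequenced from panicles of plants overexpressing OsEXPA7, an alpha-expansin that loosens cell walls, and of wild type (WT), both of the rice cultivar Nipponbare and both under a treatment given as natural. Each group had 3 libraries given as biological replicates. The labels do not say whether these came from separate plants or transgenic lines, which promoter drove the transgene, or at which stage panicles were taken, so p-values measure only the spread between these libraries. The genotype field reads EXPA7_OE for the overexpression libraries and EXPA7 for the libraries titled WT, and groups follow the titles.

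Expression was deposited as TPM, a transcript abundance scaled for transcript length and to the same total in each library, which keeps no read depth. Libraries were alike within a genotype, with Pearson correlations across loci of 0.991 to 0.993. The locus paired with OsEXPA7, LOC_Os03g60720, measured 4782 ± 403 TPM in overexpression and 935 ± 45.7 TPM in WT (SD, n = 3 each). The panicle label was checked against fixed marker lists. All 12 floral organ loci were expressed, and their summed level was 1140 to 1151 TPM in overexpression and 1027 to 1048 TPM in WT. Of these loci 5 rose and 1 fell by the test described below. The 7 anther tapetum loci summed to 802 to 849 TPM in overexpression and 731 to 769 TPM in WT, and 2 rose and 1 fell. Of 8 inflorescence meristem loci, 5 stayed under the filter on low values in both groups, among them FZP, which was listed at 0 in all libraries but overexpression replicate 3, at 0.00223 TPM there. Their sum was 83.9 to 88.3 TPM in overexpression and 76.3 to 78.9 TPM in WT, most of it from OSH1 and OSH15, and 1 of the 3 tested rose. The 3 leaf loci, for Rubisco small subunits, summed to 84.2 to 88.4 TPM in overexpression and 104 to 113 TPM in WT, and 2 of them fell.

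Among the 9 genes, CKX2 and CKX9 were the ones that passed the test used here, and both fell in the overexpression panicles. CKX2 averaged 0.750 ± 0.0879 TPM in overexpression and 1.69 ± 0.256 TPM in WT (SD, n = 3 each). CKX9 averaged 1.71 ± 0.150 TPM in overexpression and 3.14 ± 0.564 TPM in WT (SD, n = 3 each). The abundant degradation genes CKX5 and CKX11, the activation gene LOG and the regulator DST did not pass the test. Of the 9 members, 7 reached at least 1 TPM in at least 3 libraries and were tested, and CKX1 and CKX4 did not reach it. Of those 7, 2 fell and 0 rose at an adjusted p under 0.05 by limma, a linear model with a moderated spread. DST fell at an unadjusted limma p of 0.0282 but did not pass once adjusted. How many of all loci had an unadjusted p under 0.05 was not counted, though every locus that passed once adjusted is among them. Across all 23395 loci tested 42.8% passed at the adjusted threshold, 17.5% falling and 25.3% rising. The members' median log2 change was -0.21, against 0.06 over all loci tested. CKX2 entered the test only through its WT libraries, so the counts over the tested members are a description and support nothing on their own.

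**Figure D1:**
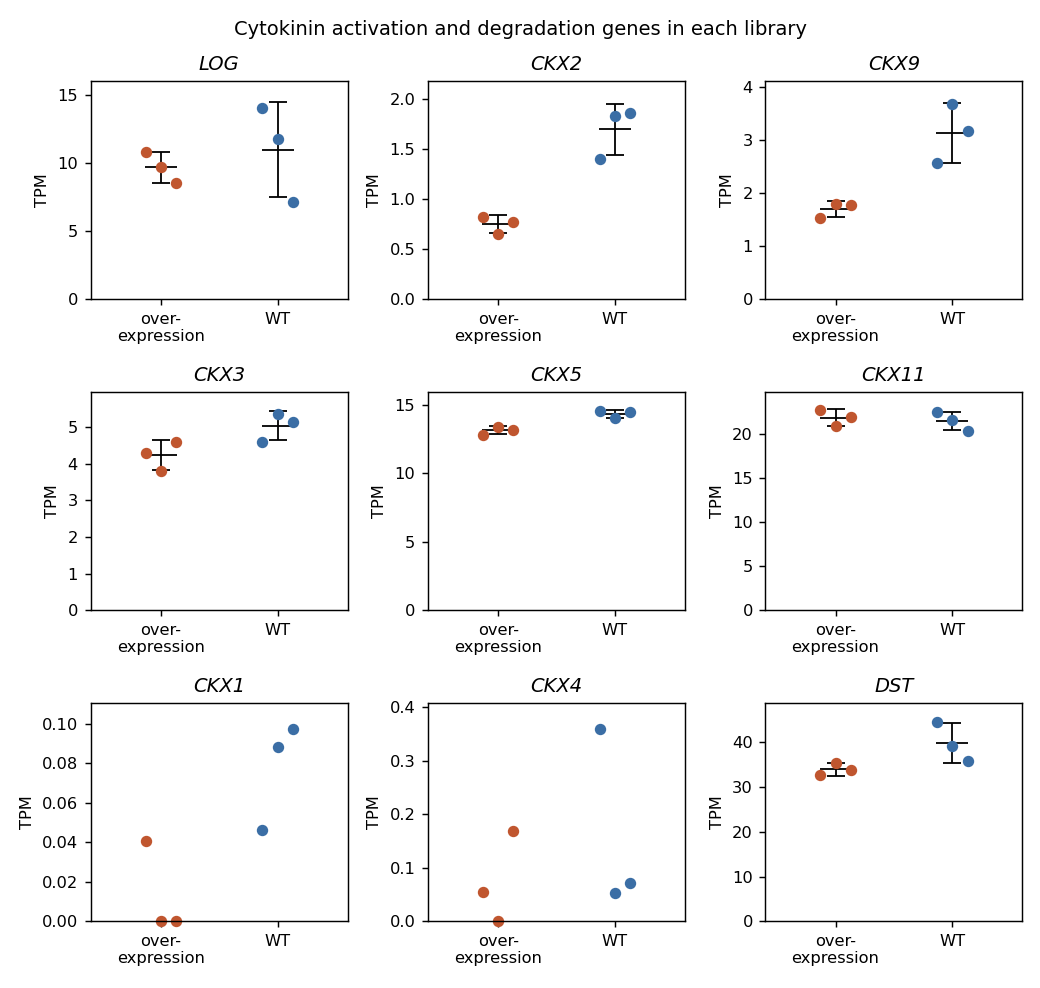
TPM of each of the 9 genes (vertical axes from 0, scaled per gene) in the 3 overexpression libraries (left) and the 3 WT libraries (right). Points are libraries, and bars are mean ± SD except for CKX1 and CKX4, where some libraries are listed at 0. For CKX2 and CKX9 all overexpression points lie below all WT points, while LOG spreads over 7.18 to 14.1 TPM within WT.

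LOG (LOC_Os01g40630, chromosome 1) encodes the enzyme that releases active cytokinin from its nucleotide precursor, and in rice it is needed to maintain the shoot and floral meristems. It measured 10.8, 9.71 and 8.56 TPM in the overexpression libraries, against 14.1, 11.8 and 7.18 TPM in the WT libraries. The groups overlapped, because the WT values lie on both sides of all overexpression values. The log2 change of (TPM + 1) was -0.13 ± 0.20 (SE), with a 95% interval from -0.58 to 0.33 and a limma adjusted p of 0.644. The WT libraries differed more in LOG than in most genes: their SD on the log2 scale was 0.45, at percentile 99.0 among the 4496 tested loci within 0.5 log2 units of its mean level. In overexpression this SD was 0.15, at percentile 71.2. Without WT replicate 3, the lowest library, the log2 change was -0.38 and passed (limma adjusted p = 0.0403), and without WT replicate 1, the highest, it turned to 0.06 (limma adjusted p = 0.828). The range of the adjusted p over its 14 alternatives was 0.0403 to 0.890. The call thus turned on leaving out WT replicate 3, and the sign on leaving out WT replicate 1.

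CKX2 (LOC_Os01g10110, chromosome 1) encodes the oxidase whose loss of function raises grain number in rice. It measured 0.824, 0.653 and 0.773 TPM in the overexpression libraries, against 1.40, 1.82 and 1.86 TPM in the WT libraries. Every overexpression library lay below 1 TPM and every WT library above it. The mean in overexpression was 0.443 times that in WT. The log2 change of (TPM + 1) was -0.62 ± 0.13 (SE; 95% interval -0.91 to -0.33), with a limma adjusted p of 0.00451. At this low level the added 1 TPM compresses the change, and with 0.1 TPM added the log2 change was -1.07. CKX2 met the filter only through its WT libraries, so its call and its percentile among filtered loci are a description. The call held in all 13 alternatives that kept the gene, and a filter at 5 TPM removed it. Among the 13, only the fit without a filter does not depend on that entry, and there the limma adjusted p was 0.00445. By size CKX2 ranked 3081 among the tested loci, and its log2 change stood at percentile 7.30 among 2328 loci of similar level, where 14.6% fell past the threshold.

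CKX9 (LOC_Os05g31040, chromosome 5) encodes another cytokinin oxidase, which in rice is known to be induced by strigolactone, a branching hormone. It measured 1.53, 1.81 and 1.78 TPM in the overexpression libraries, against 2.56, 3.69 and 3.18 TPM in the WT libraries. The groups did not overlap, and the gap between them was 0.758 TPM. The mean in overexpression was 0.543 times that in WT. The log2 change of (TPM + 1) was -0.61 ± 0.13 (SE; 95% interval -0.90 to -0.31), with a limma adjusted p of 0.00563. It too passed in all 13 alternatives that kept it, with adjusted p from 0.00382 to 0.0245 by limma, and was removed by the filter at 5 TPM. Its change stood at percentile 8.01 among 3294 loci of similar level, where 15.5% fell.

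**Figure D2:**
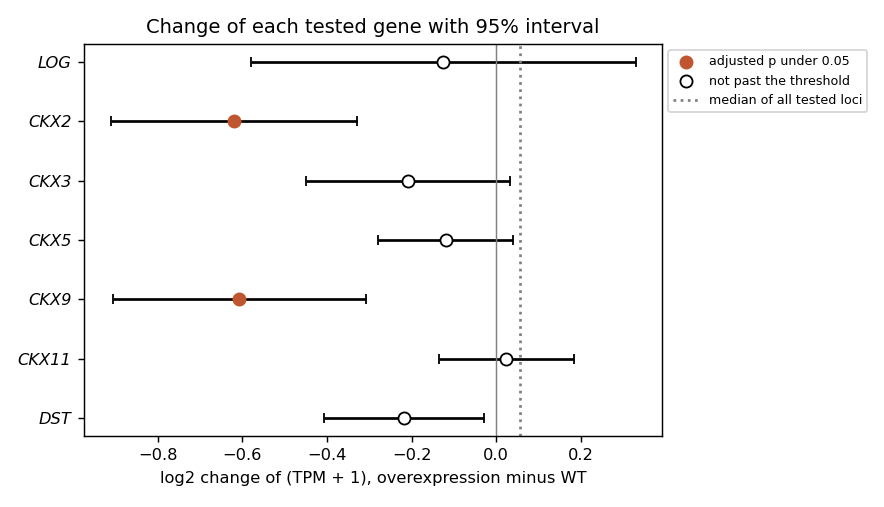
Log2 change of (TPM + 1), overexpression minus WT (horizontal axis), for the 7 tested genes. Points are limma estimates, bars their 95% intervals, filled points passed the threshold, and the dotted line is the median of all tested loci at 0.06. The CKX2 and CKX9 intervals lie wholly below 0, at -0.91 to -0.33 and -0.90 to -0.31.

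The remaining degradation genes held most of the CKX transcript. CKX11 (LOC_Os08g35860, chromosome 8), whose loss in rice delays leaf senescence, was the most abundant of them. It measured 22.7, 20.9 and 21.9 TPM in overexpression, against 22.4, 21.6 and 20.4 TPM in WT. The groups overlapped, and the log2 change was 0.02 ± 0.07 (SE; 95% interval -0.14 to 0.18; limma adjusted p = 0.811), with a sign that turned with median-of-ratios scaling and with quantile normalization.

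CKX5 (LOC_Os01g56810, chromosome 1) measured 12.8, 13.4 and 13.2 TPM in overexpression, against 14.5, 14.0 and 14.5 TPM in WT. Each overexpression library lay below each WT library, by a gap of 0.611 TPM between groups whose coefficients of variation were 2.19% and 2.08%. The log2 change of -0.12 ± 0.07 (SE; 95% interval -0.28 to 0.04) did not pass (limma adjusted p = 0.203). It passed in 1 of 14 alternatives, quantile normalization, with a log2 change of -0.21 (limma adjusted p = 0.0305, in a range up to 0.362).

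CKX3 (LOC_Os10g34230, chromosome 10) measured 4.31, 3.79 and 4.60 TPM in overexpression, against 4.60, 5.37 and 5.15 TPM in WT. The groups touched without overlapping, 0.00436 TPM apart. The log2 change was -0.21 ± 0.11 (SE; 95% interval -0.45 to 0.03; limma adjusted p = 0.146), and none of its 13 alternatives passed, with limma adjusted p from 0.0689 to 0.337.

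CKX1 (LOC_Os01g09260) and CKX4 (LOC_Os01g71310), both on chromosome 1, were at the bottom of the table. CKX1 was listed at 0.0408, 0 and 0 TPM in overexpression, against 0.0465, 0.0885 and 0.0974 TPM in WT. CKX4 was listed at 0.0546, 0 and 0.168 TPM in overexpression, against 0.359, 0.0529 and 0.0717 TPM in WT. No depth is known, so neither gene can be called absent. Tested without the filter, neither passed, with limma adjusted p of 0.169 for CKX1 and 0.537 for CKX4.

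Over the 7 CKX genes the summed level was 42.3, 40.5 and 42.4 TPM in overexpression, against 45.9, 46.6 and 45.2 TPM in WT. Each overexpression library lay below each WT library, and the mean in overexpression was 0.909 times that in WT. CKX5 and CKX11 together made up 82.7% to 84.6% of the sum in overexpression and 76.4% to 80.5% in WT. The share of CKX2 was 1.61% to 1.95% in overexpression and 3.05% to 4.11% in WT. The share of CKX9 was 3.63% to 4.46% in overexpression and 5.58% to 7.91% in WT. The genes CKX2, CKX3 and CKX9 together summed to 6.69 ± 0.450 TPM in overexpression and 9.88 ± 1.19 TPM in WT (SD, n = 3 each). LOG stood at 0.202 to 0.256 times the CKX sum in overexpression and 0.159 to 0.306 times in WT. These sums were not tested, because the genes were chosen with results known. In whole panicles, fewer cells of a type and less RNA per cell cannot be told apart. The floral organ, meristem, tapetum and leaf marker sums given above also differed between the groups without overlap, and their part in these results was not tested.

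**Figure D3:**
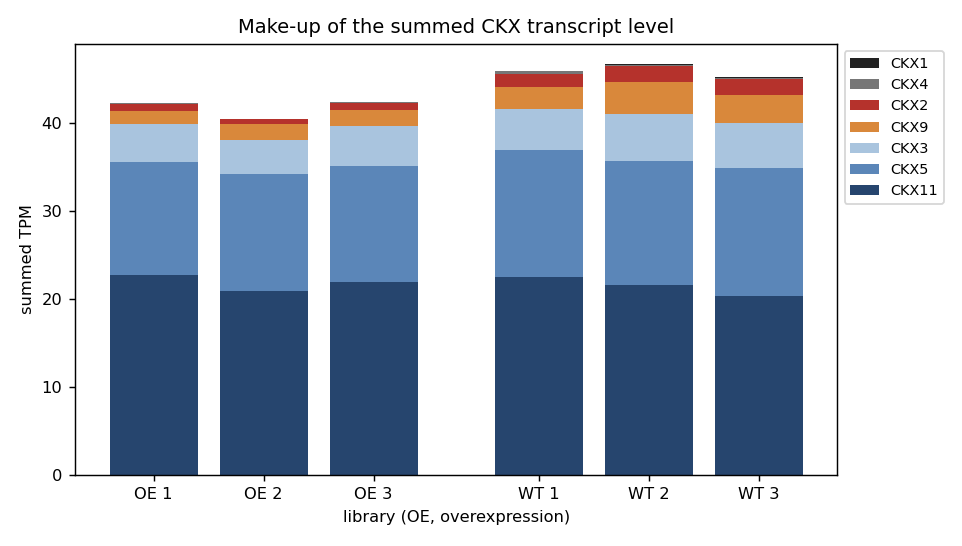
Summed TPM (vertical axis) of the 7 CKX genes in each library, overexpression (OE) left and WT right, with each gene's part stacked. CKX11 and CKX5 form the bulk of every bar, and the CKX2 and CKX9 segments are thinner in overexpression, where the sums are 40.5 to 42.4 TPM against 45.2 to 46.6 TPM in WT.

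DST (LOC_Os03g57240, chromosome 3) encodes the activator of CKX2 in rice reproductive meristems. It measured 32.6, 35.4 and 33.8 TPM in overexpression, against 44.5, 39.1 and 35.8 TPM in WT. The highest overexpression library lay 0.362 TPM below the lowest WT library. The log2 change of -0.22 ± 0.08 (SE; 95% interval -0.41 to -0.03) did not pass (limma adjusted p = 0.0620, unadjusted p = 0.0282). It passed in 4 of 14 alternatives, with a lowest limma adjusted p of 0.0179 after quantile normalization and a highest of 0.208 without WT replicate 1. Without WT replicate 3 it passed, at a log2 change of -0.29 (limma adjusted p = 0.0183), and without WT replicate 1 the log2 change was -0.14. With all libraries kept it also passed after median-of-ratios scaling and robust fitting (limma adjusted p = 0.0367 and 0.04998). The call thus turns on the scaling and the fit as well as on leaving out WT replicate 3. CKX2 measured 1.84% to 2.52% of the DST level in overexpression and 3.15% to 5.20% in WT.

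The order of mean TPM was the same in both genotypes: DST, CKX11, CKX5, LOG, CKX3, CKX9, CKX2, CKX4 and CKX1. Neighbours in this order did not overlap, except CKX4 and CKX1 in both genotypes and CKX5 and LOG in WT. All overexpression libraries lay below all WT libraries for 5 of the 7 tested members, namely CKX2, CKX3, CKX5, CKX9 and DST. That held for 22.5% of all tested loci.

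Position on the chromosome was also read from the locus identifiers, in a comparison chosen after the values were seen. Of the 9 members, 5 lie on chromosome 1. Of the 10 tested loci nearest to CKX2, 5 on either side, 4 rose, 1 fell and 0 had a lower log2 change than CKX2 itself, their median being -0.07. Around DST 5 of 10 rose and 0 fell, and their median was 0.27. Around CKX9 4 of 10 rose and 2 fell, and 1 had a lower change than CKX9. Around LOG 1 of 10 rose and 2 fell, and around CKX3 2 rose and 1 fell. Around CKX5 3 of 10 rose and 1 fell, and around CKX11 1 rose and 1 fell. Over all tested loci 25.3% rose and 17.5% fell.

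Likeness of pattern was measured as the root mean square difference of log2(TPM + 1) over the 6 libraries, after each locus was centred on its own mean. The loci nearest to CKX2 were LOC_Os06g18140 and LOC_Os05g39260, at 0.0226 and 0.0293 log2 units. Nearest to DST were LOC_Os03g17560 and LOC_Os12g09660, at 0.0291 and 0.0408 log2 units. For LOG they were LOC_Os07g15130 and LOC_Os05g01490, at 0.0800 and 0.0927 log2 units, with the same high WT replicate 1 and low WT replicate 3. No gene name was at hand for these 6 loci.

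Other steps of the pathway were read from the same fit, over 7 lists of 44 loci in all. The loci were paired with names from general knowledge of the rice annotation, which the deposited table does not give. Of the 44, 22 had a RefSeq entry of that name, 21 of them on the chromosome that the identifier names, and the exception was MPK6. Together 43 had a row and 32 were tested, of which 5 rose and 4 fell, with a median log2 change of 0.05. As shares, both are below the 25.3% and 17.5% over all tested loci.

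The LOG-like genes, relatives of LOG in the same activation step, did not move one way. Of 10 tested, 3 rose, 1 fell and 6 did not pass. LOGL3 measured 13.3, 9.85 and 12.1 TPM in overexpression, against 7.44, 7.34 and 8.53 TPM in WT (log2 change 0.53 ± 0.12 SE, limma adjusted p = 0.00597). LOGL4 measured 12.1, 10.4 and 12.3 TPM in overexpression, against 8.57, 7.92 and 8.66 TPM in WT (log2 change 0.42 ± 0.09 SE, limma adjusted p = 0.00584). LOGL10, the most abundant, fell to 37.7, 40.0 and 40.6 TPM in overexpression, against 49.2, 48.9 and 45.9 TPM in WT (log2 change -0.28 ± 0.06 SE, limma adjusted p = 0.00538). Groups did not overlap for any of these. The third that rose, LOGL8, averaged 3.73 ± 0.247 TPM in overexpression and 1.63 ± 0.488 TPM in WT (SD, n = 3 each), and is named after its values were seen. LOG and its 10 relatives together summed to 142 to 155 TPM in overexpression and 147 to 154 TPM in WT, overlapping.

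The 9 isopentenyltransferase loci were taken as a single list, whatever the substrate of each enzyme. They were mostly low in these panicles: 3 were listed at 0 in every library, and 3 were tested. Of those, 1 fell and 2 did not pass. Most of the list's transcript came from 1 of the 2, LOC_Os01g73760, named after its values were seen. It averaged 25.6 ± 0.939 TPM in overexpression and 29.3 ± 2.40 TPM in WT (SD, n = 3 each; limma adjusted p = 0.0745). The groups did not overlap, and it passed in 2 of 14 alternatives. The locus that fell, LOC_Os05g47840, measured 1.90, 1.93 and 1.59 TPM in overexpression, against 6.11, 5.45 and 5.07 TPM in WT. The groups lay far apart, with a log2 change of -1.22 ± 0.11 (SE, limma adjusted p = 3.92e-05). On the log2(TPM + 1) scale it is the only one of the 32 pathway loci that passed with a change of at least 1 log2 unit, as 4.82% of all tested loci did; by the ratio of mean TPM, LOGL8 also exceeded 2-fold, at 2.29.

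Downstream, the 4 receptor histidine kinase loci, which perceive cytokinin at the membrane, all stayed short of the threshold, with log2 changes from 0.04 to 0.19. Of the type-A response regulators, which cytokinin induces and which feed back on its signalling, 9 of 10 were tested, 1 rose, 2 fell and 6 did not pass. RR1 measured 20.3, 20.3 and 20.8 TPM in overexpression, against 26.4, 24.5 and 25.0 TPM in WT (log2 change -0.30 ± 0.06 SE, limma adjusted p = 0.00570). Its relative RR4 averaged 28.2 ± 1.06 TPM in overexpression and 34.7 ± 4.35 TPM in WT (SD, n = 3 each; limma adjusted p = 0.0326). It lost its call in 7 of 14 alternatives, 5 of them with 1 library left out (each overexpression library, WT replicate 2 or WT replicate 3), where its log2 change ran from -0.30 to -0.19. RR7 rose to 7.70, 5.69 and 6.63 TPM in overexpression, against 4.47, 4.97 and 4.07 TPM in WT (log2 change 0.47 ± 0.12 SE, limma adjusted p = 0.0131). The median log2 change of the list was 0.02.

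The ERECTA receptor and MAP kinase module in rice phosphorylates DST. Its list, not sorted into loci that promote and loci that oppose this step, had 5 tested loci. Of these 1 rose and 4 did not pass. The locus that rose, LOC_Os02g54600, measured 47.7, 45.6 and 43.9 TPM in overexpression, against 31.0, 32.6 and 31.4 TPM in WT. The groups did not overlap (log2 change 0.52 ± 0.06 SE, limma adjusted p = 0.000161). The 1 cytokinin hydroxylase locus tested had a log2 change of -0.33 and did not pass (limma adjusted p = 0.0717). It passed in 3 of 13 alternatives. The 3 further CKX loci with a row were all under the filter on low values.

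**Figure D4:**
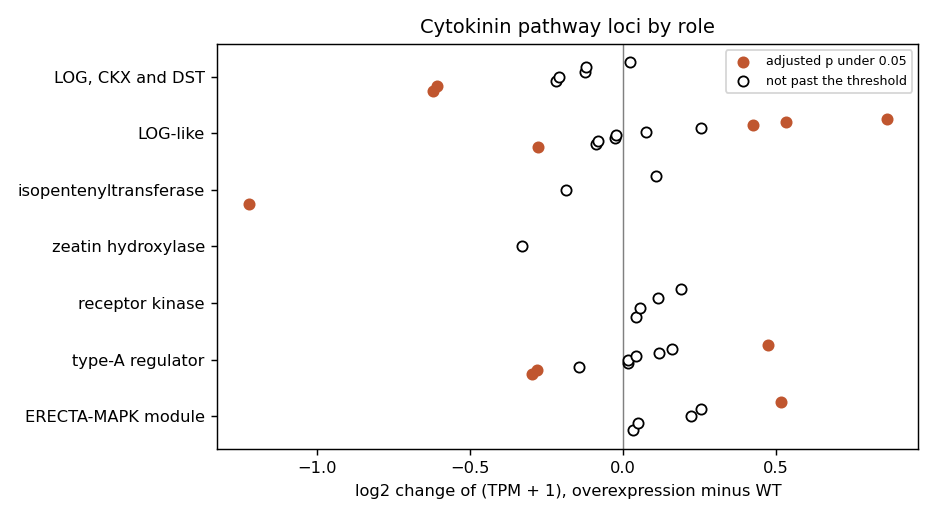
Log2 change of (TPM + 1), overexpression minus WT (horizontal axis), for every tested locus of the members and of the 6 pathway lists with a tested locus, 1 point per locus, filled where the limma adjusted p was under 0.05. LOG-like and type-A loci lie on both sides of 0, and the isopentenyltransferase LOC_Os05g47840 lies farthest out at -1.22. The row labelled zeatin hydroxylase holds the cytokinin hydroxylase locus.

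**Figure D5:**
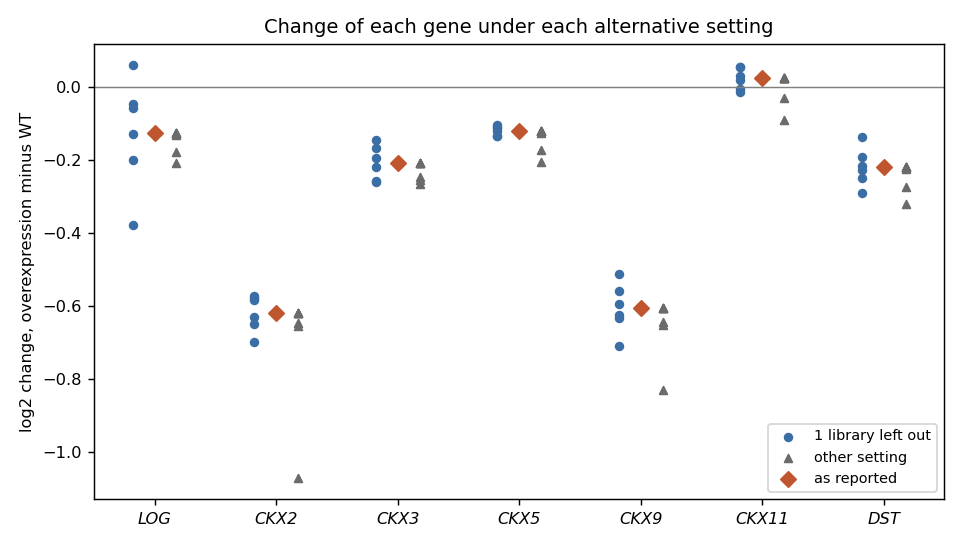
Log2 change, overexpression minus WT (vertical axis), of each tested gene as reported (diamonds), with 1 library left out (circles) and under the other settings (triangles). CKX2 and CKX9 stay below -0.51 throughout, LOG runs from -0.38 to 0.06, and the lowest triangle is CKX2 with 0.1 TPM added, at -1.07.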

How the data were processed

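The deposited table holds TPM, 1 column per library, scaled by the authors to a common total. Its aligner, counting tool and annotation were not given in the sources used here. Per the submitters' processing notes the builds are GRCm38 and mm10, both of mouse, although the loci carry rice identifiers; this could not be settled, and no coordinates were used. TPM keeps no depth, so no counting intervals or detection limits are given.

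Groups follow the titles. TPM was log2-transformed after adding 1, and 23395 loci that reached 1 TPM in 3 or more of the 6 libraries were fitted with limma 3.58.1 in R 4.3.3 (moderated spread with a trend on level, two-sided). P-values were Benjamini-Hochberg adjusted over all these loci, with a threshold of 0.05. Fold changes on this scale understate those of low loci. Tested on simulated normal values, the fit gave unbiased estimates and recovered fewer changes at loci of high spread. A first requirement on recovery failed there and was replaced, while the model was kept. Only 200 loci were changed in the simulation, against 10002 that passed in the data. It held no scaling difference between groups, so it cannot show that the estimates here are free of one.

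Members, lists and tests were chosen with earlier results of these data known. Named were all members, OsEXPA7 (paired with its locus from general knowledge), list loci past the threshold with at least 5 TPM in the higher group, and for LOG, CKX2 and DST the 2 loci of nearest profile. Member names come from the locus list that defines them. RefSeq (assembly ASM3414082v1) has an entry for 8 of the 9 names, all 8 on the identifier's chromosome. How reads shared by similar genes were counted is not known, so values of close relatives are uncertain. Alternatives were a pseudocount of 0.1, no filter, a 5 TPM filter, median-of-ratios scaling, quantile normalization, no variance trend, robust fitting, the replicate block and leaving out each library.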

Additional observations from a re-analysis of the deposited data

How the results depend on the processing

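CKX2 and CKX9 kept their direction and call in every alternative that tested them, 13 each. For CKX2 all of these but the fit without a filter used a filter that it met only through its WT libraries. Log2 changes with 1 library left out ran from -0.70 to -0.57 for CKX2, -0.71 to -0.51 for CKX9, -0.26 to -0.15 for CKX3, -0.14 to -0.10 for CKX5, -0.29 to -0.14 for DST, -0.38 to 0.061 for LOG and -0.013 to 0.055 for CKX11. LOG turned to 0.061 without WT replicate 1. CKX11, near 0 as reported, turned to -0.031 with median-of-ratios scaling, -0.091 with quantile normalization, -0.0045 without overexpression replicate 1 and -0.013 without WT replicate 3. DST passed with median-of-ratios scaling (-0.27), quantile normalization (-0.32) and robust fitting (-0.22), and CKX5 with quantile normalization (-0.21). The members that fell numbered 0 with the 5 TPM filter, which removes CKX2, CKX3 and CKX9 by construction, 4 with quantile normalization, and 2 to 4 with 1 library left out, the 4 being without WT replicate 3; 0 rose throughout. Pathway loci that fell numbered 4 as reported, 7 with median-of-ratios scaling and with quantile normalization, and 3 to 4 with 1 library left out; 5 to 7 rose with 1 library left out. The cytokinin hydroxylase locus fell with median-of-ratios scaling and with quantile normalization (limma adjusted p = 0.0483 and 0.0469), and without overexpression replicate 2. RR9 also fell with both of these settings (limma adjusted p = 0.0219 and 0.00705), as did LOC_Os01g73760 (limma adjusted p = 0.0134 and 0.00539). RR11 rose without WT replicate 3. A further locus of the ERECTA-MAPK module rose without that library or without overexpression replicate 1. Where no cause is named, the cause was not tested. All loci past the threshold numbered 10002 as reported, 59.1% of them higher, 50.7% higher with median-of-ratios scaling and 45.7% with quantile normalization, and 7971 to 9644 with 1 library left out.

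Both groups use the same replicate numbers, which no label describes as a pairing. Deviations of same-numbered libraries correlated at 0.097, -0.0988 and -0.0685. The replicate block gave 9264 loci and 2 members that fell, with adjusted p of 0.0122 for CKX2 and 0.00694 for CKX9 by limma. Unknown depth limits what can be said of CKX1, CKX4 and CKX2.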
